A study of Mus musculus with 66 samples.

Results

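The 2 knockdowns compared here lower Ash1l and Setd5, genes of proteins that carry a SET domain and are tied to methylation of lysine 36 of histone H3 (H3K36). The 6 libraries of neurons that received Ash1l shRNA were set directly against 5 libraries that received Setd5 shRNA, 11 of the 66 libraries of the series, with no control library in the contrast and the sex of the culture as a covariate. The Ash1l shRNA libraries were 3 from female and 3 from male cultures. The Setd5 shRNA libraries were 3 from female cultures and replicates 2 and 3 from male cultures. The library labelled Setd5 shRNA male replicate 1 was left out of the main contrast on its Setd5 level, which was that of the control, so the Setd5 level of the remaining libraries was selected on.

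All cultures, controls included, were primary neurons from wildtype mouse embryos at E16.5, kept apart by the sex of the embryo. They received lentivirus with an shRNA, a short hairpin RNA that lowers the mRNA it matches. The control groups shown beside the 2 knockdowns, 3 female and 3 male libraries, received a nontargeting shRNA. Cells were freed of virus at culture day 6 and lysed at culture day 10, and the labels state a dose meant to leave each target at about 50% of its level. The labels give neither the hairpin sequences nor the number of hairpins for a target, so an effect of less Ash1l or Setd5 and an effect of the hairpin itself cannot be told apart. They describe replicates as wells infected in triplicate, so p-values measure the spread between these libraries, which may be technical.

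ASH1L is a trithorax group protein that methylates H3K36 together with the chromodomain protein MRG15, and this mark holds off Polycomb silencing. SETD5 binds the NCoR and HDAC3 co-repressor and the PAF1 elongation complex, and whether it methylates H3K36 itself has been disputed. Variants of both genes are associated with autism and intellectual disability, and both proteins have been studied in the outgrowth and synapses of cortical neurons.

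Total counts of the 11 libraries ranged from 13759741 to 38751614. A library with fewer counts gives a larger counting error, most of all for genes under 1 count-per-million (CPM). Of the 11, the library labelled Setd5 shRNA female replicate 1 stood apart. It lay at -81.6 on the first principal component (27.5% of the variance), against -26.7 to 36.7 for the others. It had 63232 counts of Xist, the transcript of the inactive X chromosome, together with 612 of Ddx3y and 574 of Kdm5d, both Y-linked. No other female library of the 2 knockdowns had more than 12 of Ddx3y. Of the Y-linked Uty and Eif2s3y it had 0 and 24 counts, where the male libraries of the contrast had 651 to 944 and 1520 to 2125. It also had the fewest genes detected of the 11 libraries (16237). The origin of this pattern was not tested, and the library stayed in the main contrast. The second component (19.2%) held the 5 Setd5 shRNA libraries between 13.3 and 40.7 and the Ash1l shRNA libraries between -42.1 and 3.78, so the 2 groups did not overlap on it.

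Ash1l mRNA ranged from 19.7 to 36.4 CPM, with a median of 28.3, in the 6 Ash1l shRNA libraries. In the Setd5 shRNA libraries it was 131, 152 and 91.9 CPM in female replicates 1 to 3 and 94.0 and 140 CPM in male replicates 2 and 3. The 6 nontargeting libraries lay between 75.4 and 136 CPM. Relative to the nontargeting mean, Ash1l stood at 25.7% after Ash1l shRNA and at 112% after Setd5 shRNA.

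Setd5 mRNA was 31.6, 60.5 and 32.5 CPM in the female and 42.6 and 42.2 CPM in the male Setd5 shRNA libraries. It lay between 120 and 183 CPM, with a median of 143, after Ash1l shRNA and between 96.3 and 153 CPM with the nontargeting shRNA. The mean after Setd5 shRNA was 32.0% of the nontargeting mean, and after Ash1l shRNA it was 114%. Each hairpin thus left the other target in the range of the control libraries or slightly above it. Both levels are descriptions without a test. Ash1l spans chr3:88950414-89079375 and Setd5 chr6:113077262-113153432 (GRCm38.p6, the assembly of mm10).

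**Figure D1:**
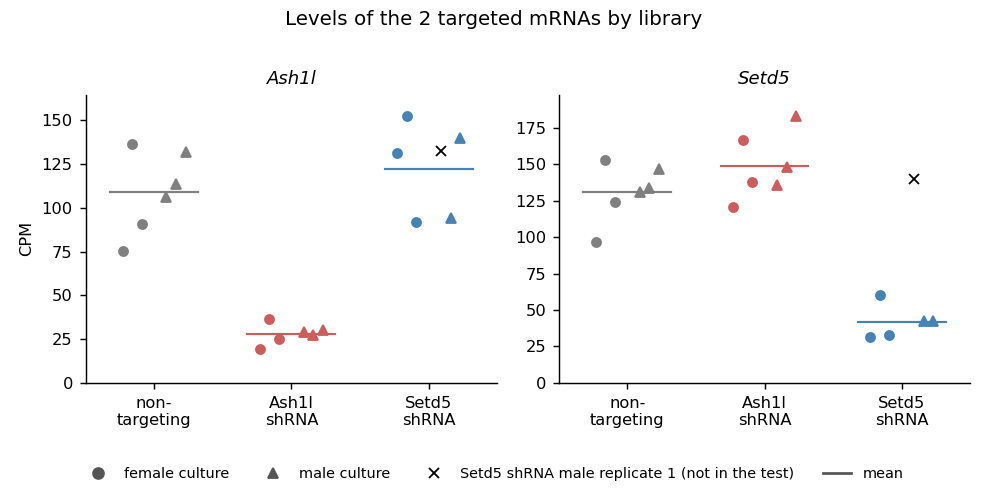
CPM (vertical axis, linear) of Ash1l and Setd5 in each nontargeting, Ash1l shRNA and Setd5 shRNA library, with circles for female and triangles for male cultures and a line at the mean of each group. Ash1l is lowest in the 6 Ash1l shRNA libraries (19.7 to 36.4 CPM) and Setd5 in 5 Setd5 shRNA libraries (31.6 to 60.5 CPM), while the library left out, marked by a cross, holds 140 CPM of Setd5.

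For Setd5 the library left out stood at 140 CPM, and for Kdm6b, another target of the series, at 22.8 CPM. The nontargeting male libraries had 59.0 ± 4.94 CPM of Kdm6b (SD, n = 3). Low levels of Kdm6b also occurred in female libraries of each group, at 19.05 CPM in Ash1l shRNA, 24.2 CPM in Setd5 shRNA and 30.7 CPM in nontargeting female replicate 1. Levels in the library left out are given below where they bear on a result.

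The transcriptomes after the 2 knockdowns differed at 1368 of 15372 genes tested (8.9%), the targets included, at an adjusted p under 0.05 (quasi-likelihood test of edgeR, p-values adjusted over all genes by Benjamini and Hochberg). Genes past that threshold are named called genes here. Of these, 764 genes (4.97%) were higher after Ash1l shRNA and 604 (3.93%) were higher after Setd5 shRNA. Most differences were modest. The median absolute log2 difference was 0.66 among the genes higher after Ash1l shRNA and 0.65 among those lower, and 153 and 115 genes differed by more than 1 on the log2 scale. For 4889 genes (31.8%) the 95% interval of the difference lay within 0.5 of 0 on the log2 scale.

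Judged without a model, the 6 Ash1l shRNA libraries all lay above the 5 Setd5 shRNA libraries for 689 genes (4.48%) and all below them for 536 genes (3.49%). Among the called genes this held for 584 of 764 and 420 of 604. With Setd5 shRNA male replicate 1 added, 1215 genes were called, 581 higher and 634 lower, and 1058 of them were among the 1368. The share of calls that were higher then was 47.8%, against 55.8% without that library. Without Setd5 shRNA female replicate 1 the count was 1353. The main fit did not use replicate numbers, which went with shared deviations in females and less so in males. With the numbers of both sexes as a block 2813 genes were called, and with all groups of the series in the fit 2349. Leaving out Ash1l shRNA female replicate 3, Ash1l shRNA male replicate 2, Setd5 shRNA male replicate 2 or Setd5 shRNA male replicate 3 gave 851, 906, 831 and 724 calls, in that order.

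**Figure D2:**
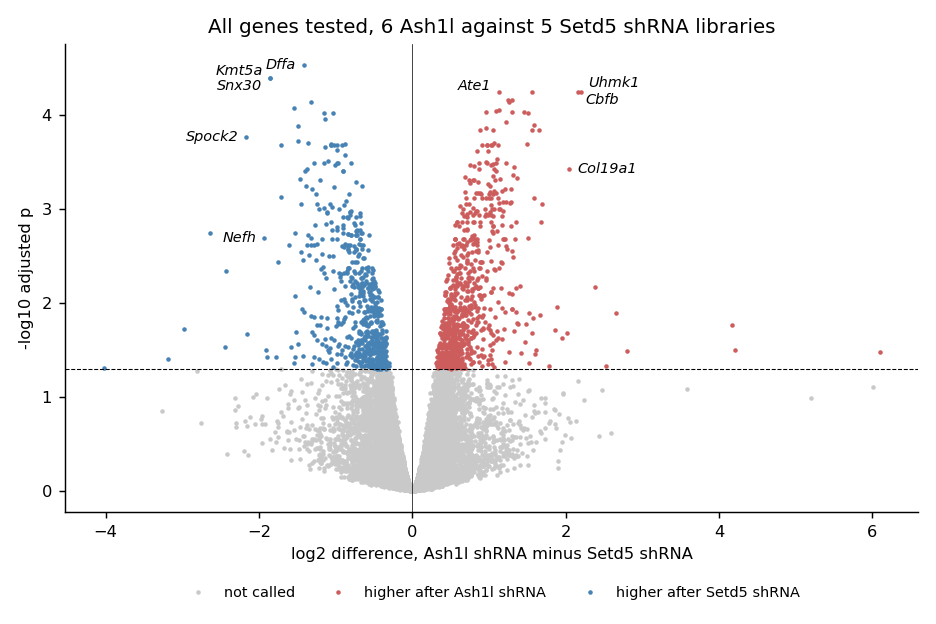
Log2 difference (Ash1l shRNA minus Setd5 shRNA, horizontal axis) against -log10 of the adjusted p (vertical axis) for each gene tested except the targets themselves, with the threshold of 0.05 as a dashed line. The 764 red points and 604 blue points, targets counted, spread to both sides, and the labelled genes are among those chosen for the smallest p or the largest difference.

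Of the genes lower after Setd5 shRNA, Cntnap4, a neurexin superfamily protein of interneuron synapses, ranged from 79.9 to 109 CPM, with a median of 102, after Ash1l shRNA. It had 32.3, 43.3 and 28.5 CPM in the female and 33.2 and 33.4 CPM in the male Setd5 shRNA libraries. The groups did not overlap, and the log2 difference was 1.56 (SE 0.13, adjusted p = 5.6e-05). Nontargeting libraries lay between 76.8 and 117 CPM, so the level after Ash1l shRNA was the control level (log2 difference from nontargeting 0.01) and that after Setd5 shRNA was below it (-1.53). The library left out had 110 CPM of Cntnap4.

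Ate1, which attaches arginine to proteins and marks them for degradation, ranged from 112 to 125 CPM after Ash1l shRNA and from 48.0 to 60.6 CPM after Setd5 shRNA, a log2 difference of 1.13 (SE 0.09). Eif4h, a cofactor of the translation initiation helicase, ranged from 303 to 359 CPM and from 84.7 to 147 CPM (log2 difference 1.45, SE 0.14). For both, the level with the nontargeting shRNA was near that after Ash1l shRNA: 98.5 to 119 CPM for Ate1 and 309 to 348 CPM for Eif4h. Col19a1, a collagen chain, followed the same order, with 12.8 to 24.0 CPM after Ash1l shRNA, 2.67 to 6.98 after Setd5 shRNA and 17.5 to 24.2 with the nontargeting shRNA (log2 difference 2.05, SE 0.25). In the library left out, Col19a1 stood at 20.9 CPM, Ate1 at 96.8 and Eif4h at 233, each above the other 5 Setd5 shRNA libraries.

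Uhmk1, a kinase that phosphorylates splicing factors, differed in both directions from the control. It ranged from 795 to 933 CPM, with a median of 846, after Ash1l shRNA. It had 155, 286 and 139 CPM in the female and 162 and 187 CPM in the male Setd5 shRNA libraries, and the nontargeting libraries lay between these groups at 372 to 569 CPM. The log2 difference between the knockdowns was 2.20 (SE 0.18, adjusted p = 5.6e-05). The library left out had 590 CPM, above the nontargeting range.

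Cbfb, the partner subunit of RUNX transcription factors, showed the same order. It ranged from 34.0 to 55.4 CPM after Ash1l shRNA and from 16.7 to 25.8 CPM with the nontargeting shRNA. After Setd5 shRNA it was 9.65, 14.9 and 8.84 CPM in the female and 8.55 and 8.15 CPM in the male libraries (log2 difference 2.16, SE 0.18). The log2 difference from nontargeting was 1.03 after Ash1l shRNA and -1.12 after Setd5 shRNA.

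Among genes lower after Ash1l shRNA, Dffa, the inhibitor of the nuclease that cuts DNA in apoptosis, had the smallest p. It ranged from 23.2 to 29.9 CPM, with a median of 26.8, after Ash1l shRNA. The Setd5 shRNA libraries had 76.6, 64.3 and 73.8 CPM in females and 71.3 and 72.0 CPM in males, and the nontargeting libraries had 52.0 to 62.5 CPM. The 3 groups did not overlap, and the log2 difference between the knockdowns was -1.42 (SE 0.10, adjusted p = 2.9e-05).

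Kmt5a, the SET domain enzyme that adds the first methyl group to lysine 20 of histone H4, ranged from 14.7 to 25.5 CPM after Ash1l shRNA. It had 71.3, 70.6 and 74.0 CPM in the female and 62.9 and 79.2 CPM in the male Setd5 shRNA libraries, and 30.8 to 44.7 CPM with the nontargeting shRNA. This SET domain gene therefore lay below the control in one knockdown (log2 difference -1.03) and above it in the other (0.83), and the knockdowns differed by -1.85 (SE 0.14). The library left out had 49.9 CPM of Kmt5a, between the control and the other Setd5 shRNA libraries.

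Spock2, an extracellular proteoglycan of the brain, ranged from 92.3 to 276 CPM after Ash1l shRNA, from 604 to 835 CPM after Setd5 shRNA and from 580 to 753 CPM with the nontargeting shRNA (log2 difference between the knockdowns -2.17, SE 0.23). Snx30, a sorting nexin of endosomes, ranged from 19.4 to 37.6 CPM after Ash1l shRNA and from 93.1 to 103 CPM after Setd5 shRNA (-1.86, SE 0.14). Gnai2, an inhibitory G protein subunit, ranged from 36.8 to 60.0 CPM and from 104 to 155 CPM (-1.48, SE 0.15). These genes had levels after Setd5 shRNA at or a little above the control, with log2 differences from nontargeting of 0.05 for Spock2, 0.31 for Snx30 and 0.22 for Gnai2.

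**Figure D3:**
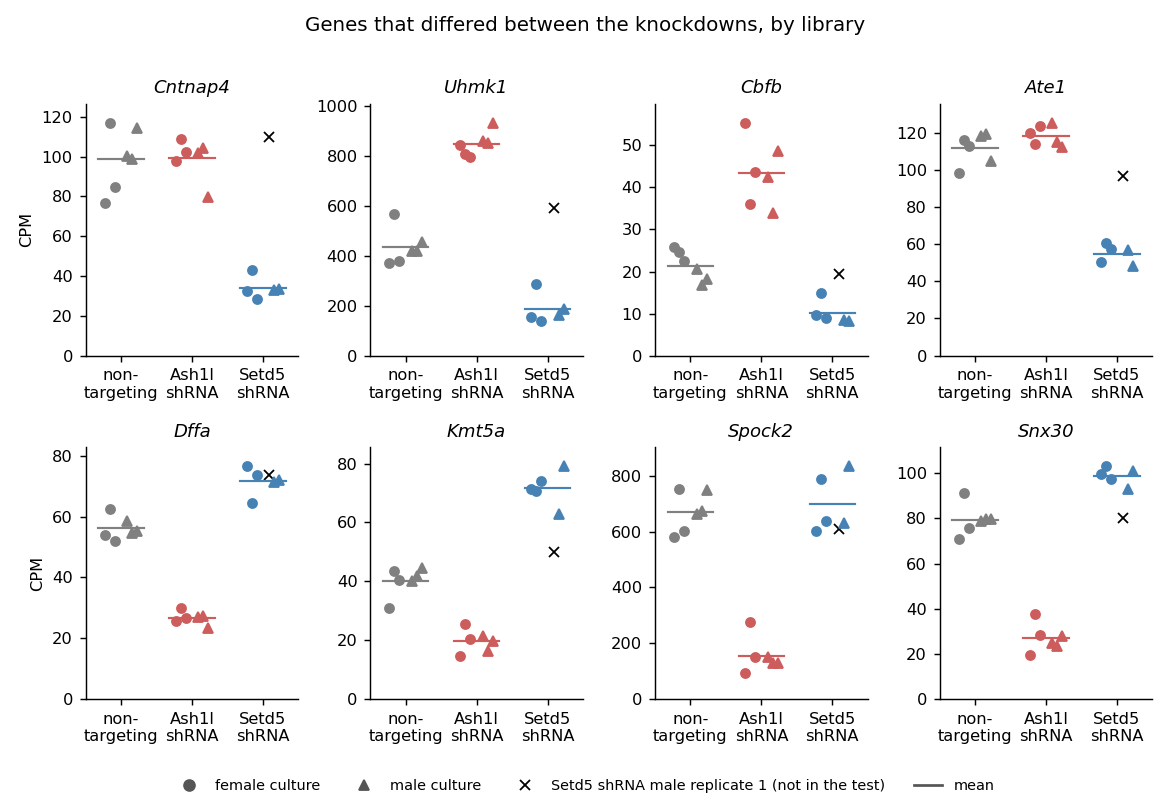
CPM (vertical axes, linear, from 0) of 8 genes in each library, with symbols as in the plot of target levels. In the upper row Cntnap4 and Ate1 are low only in the 5 Setd5 shRNA libraries of the contrast, and Uhmk1 and Cbfb have the nontargeting libraries between the knockdowns, and in the lower row all Ash1l shRNA libraries lie under all others.

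The remaining genes with the smallest p had log2 differences from 1.10 (Dcun1d4, an adaptor for cullin neddylation) to 1.30 (Acadsb, a mitochondrial acyl-CoA dehydrogenase) among those higher after Ash1l shRNA. Wdr48, a cofactor of deubiquitinases, had 1.13, Zswim5 1.25 and 6030458C11Rik 1.26. Among those lower they ran from -1.03 (Gga3, an adaptor for cargo that leaves the trans-Golgi network) to -1.54 (Rcn2, a calcium-binding protein of the endoplasmic reticulum). Between these lay Bpnt1 at -1.14, Cnih4, which helps cargo leave the endoplasmic reticulum, at -1.13, and Galnt9, an enzyme that starts O-linked glycans, at -1.33. All 20 genes, chosen for small p and for no overlap within either sex, were called under each of the 18 alternatives tried.

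The genes with the largest differences included some with low counts. Krt73, a keratin, ranged from 1.21 to 3.94 CPM after Ash1l shRNA and from 0 to 0.729 CPM after Setd5 shRNA (log2 difference 2.38, SE 0.46). Nefh, the heavy neurofilament chain, ranged from 4.16 to 12.3 CPM and from 13.0 to 37.8 CPM (-1.93, SE 0.31). Kcne1l, an accessory subunit of potassium channels, had a log2 difference of 1.88 (SE 0.40). The value of Sync, an intermediate filament protein, was -3.19 (SE 0.87). Setd5 shRNA female replicate 1 had 7.95 CPM of Sync, where the other 4 Setd5 shRNA libraries had 0.446 to 1.13 CPM. Only through that library did Sync reach the minimum mean of 1 CPM for this choice, at 1.09 CPM over the 11 libraries. Without that library the log2 difference was -1.76. The call of Sync held under 8 of the 17 alternatives that tested it. It was lost when any 1 of the 6 Ash1l shRNA libraries or Setd5 shRNA male replicate 3 was left out. It was also lost without a filter on low counts and with replicate numbers as a block. The adjusted p in these settings was at most 0.12.

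**Figure D4:**
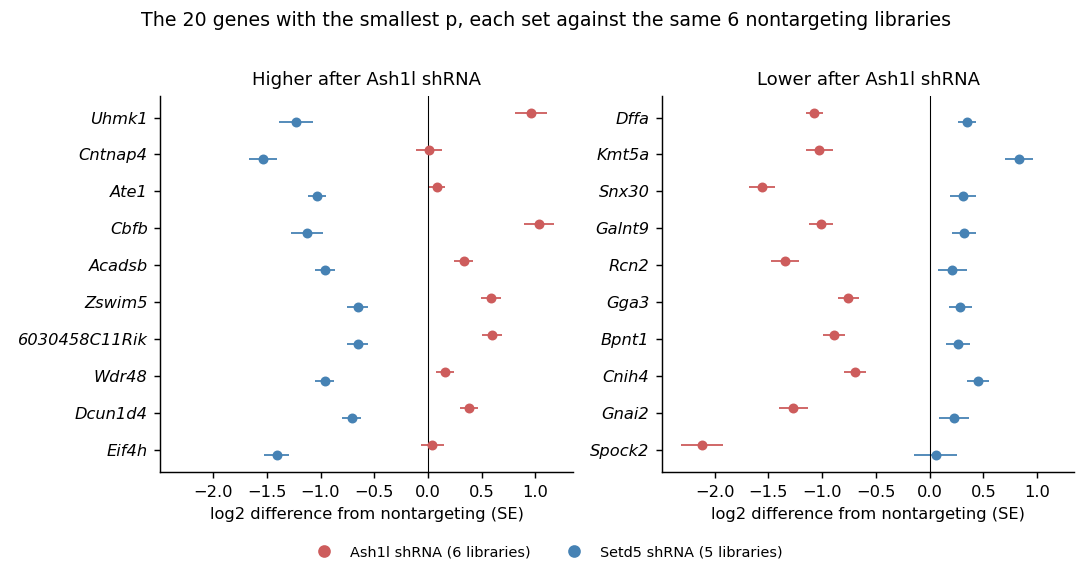
Log2 difference from the 6 nontargeting libraries (horizontal axis, bars are SE) after Ash1l shRNA (red) and after Setd5 shRNA (blue) for the 10 genes with the smallest p in each direction. Genes in the left panel have the Setd5 shRNA value between -1.53 and -0.66 and those in the right panel have the Ash1l shRNA value between -2.12 and -0.70.

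Set against the 6 nontargeting libraries, which both comparisons share, Ash1l shRNA gave 828 calls among 15586 genes (5.31%) and Setd5 shRNA gave 839 (5.38%). Of the 764 genes higher after Ash1l shRNA than after Setd5 shRNA, the nontargeting mean lay between the knockdowns for 83.9% and was nearer to the Ash1l shRNA mean for 560. Of the 604 genes lower, it lay between for 83.4% and was nearer to the Setd5 shRNA mean for 408. Over all genes tested it lay between for 40.9% and was nearer to the Ash1l shRNA mean for 56.0%. Called genes were chosen for a gap between the 2 knockdowns. A larger share with the control between them is therefore largely fixed by that choice. In both directions the control level was more often nearer to the knockdown with more of the transcript.

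The promoters of Cbfb and Dffa are printed as the windows before the start of the called genes with the smallest p in each direction that have 1 listed start site and an entry in RefSeq's table (GRCm38.p6). Each is the 250 bases before the start on the plus strand. Capitals mark matches on either strand to GGGCGG, the GC box bound by SP factors, and CCAAT, bound by NF-Y. The Cbfb window is chr8:105170424-105170673 and the Dffa window chr4:149103892-149104141.
Cbfb: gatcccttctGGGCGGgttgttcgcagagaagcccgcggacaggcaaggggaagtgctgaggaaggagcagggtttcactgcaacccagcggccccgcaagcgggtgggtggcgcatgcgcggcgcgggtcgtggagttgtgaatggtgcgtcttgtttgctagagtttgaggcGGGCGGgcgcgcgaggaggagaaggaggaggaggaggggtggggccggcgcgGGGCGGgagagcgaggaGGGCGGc
Dffa: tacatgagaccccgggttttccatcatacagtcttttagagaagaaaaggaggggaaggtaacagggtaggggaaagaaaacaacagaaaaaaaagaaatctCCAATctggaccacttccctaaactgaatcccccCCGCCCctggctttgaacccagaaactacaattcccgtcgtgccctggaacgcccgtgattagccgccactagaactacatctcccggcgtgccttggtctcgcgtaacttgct
The Cbfb window had 69.2% G and C with 25 CG pairs and 4 GC boxes, and the Dffa window had 50.4% with 11 CG pairs, 1 GC box and 1 CCAAT box. Of the 32851 windows in the table, 32.7% held a GC box and 33.8% a CCAAT box. The E-box CACGTG was found in 6.02% of windows, the ETS site CCGGAAG in 6.91% and the TATA box TATAAA in 12.4%, and these letters were in neither window.

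The lists of related genes below are described by how many of their tested members were called, to be read against the 8.9% called among all genes, and by their median log2 difference, against 0.006 for all genes. Across the 32 lists, 73 members were called and 27 of these were called under all 18 alternatives. Of all 1368 called genes, 575 were called in every setting. Where a named member was not, this is stated.

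Of the other H3K36 methyltransferases, 2 of 9 were called, both higher after Ash1l shRNA, with a list median of -0.07. Setmar, a SET domain methyltransferase, ranged from 4.65 to 6.91 CPM after Ash1l shRNA and from 2.16 to 2.82 CPM after Setd5 shRNA, with 2.94 to 3.78 CPM in the nontargeting libraries (log2 difference 1.17, SE 0.17, adjusted p = 0.0012). Nsd2, which adds up to 2 methyl groups at H3K36, ranged from 256 to 319 CPM after Ash1l shRNA and was 191, 247 and 196 CPM in the female and 192 and 218 CPM in the male Setd5 shRNA libraries (0.43, SE 0.10, adjusted p = 0.024). The Nsd2 call was lost with Setd5 shRNA male replicate 1 included, which had 308 CPM, and when any 1 of 5 other libraries was left out, at adjusted p up to 0.13. The values not called were -0.29 for Setd2, the enzyme of trimethylation behind RNA polymerase, -0.14 for Nsd1 and 0.01 for Nsd3.

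Of 9 genes listed with the H3K36 demethylases, Riox2 alone was called (0.67, SE 0.17), a call lost in the same settings as that of Nsd2. Whether its protein acts on H3K36 was not tested. The list median was 0.14, with 6 positive values. Kdm4d had 0.997 (adjusted p = 0.078) at means of 1.999 CPM after Ash1l shRNA and 0.977 CPM after Setd5 shRNA, and was called by DESeq2, with all groups in the fit and with the block. Kdm4c, Kdm2a and Kdm4a had -0.36, -0.31 and -0.19. Of 19 readers of the mark, Hdgf, a PWWP domain growth factor, was lower after Ash1l shRNA. It ranged from 57.9 to 88.7 CPM there, was 189, 119 and 154 CPM in the female and 137 and 136 CPM in the male Setd5 shRNA libraries, and ranged from 116 to 135 CPM with the nontargeting shRNA (-1.02, SE 0.13, adjusted p = 5.8e-04). Its relative Hdgfl3 was called in the other direction (0.54, SE 0.15), and that call held under 8 of the 18 alternatives. Dnmt3a and Morf4l1, the gene of MRG15, had values of -0.03 and 0.02.

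None of 15 genes of the ASH1L complex and the trithorax group was called (1 at an unadjusted p under 0.05 in edgeR, 0 called by DESeq2), and the list ran from -0.19 to 0.21 on the log2 scale. Of 18 genes of complexes that SETD5 binds, Ehmt1, an H3K9 methyltransferase, was called (0.45, SE 0.12), under 8 of the 18 alternatives. Of 33 Polycomb genes, Jarid2 was called (-0.70, SE 0.18), under 10 of the 18. Of 13 tested Hox and TALE homeobox genes, Hoxd8 was called, under 3 of the 18, from group means of at most 0.274 CPM, and 24 of the 50 genes of that list in the table had no count in the 11 libraries. Among these chromatin lists the share called ran from 0% for the trithorax list to 22.2% for the methyltransferases, where it stands for 2 genes.

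Markers of GABAergic interneurons had 4 of 18 members called, all lower after Ash1l shRNA, with a list median of -0.26. Gad1, which makes GABA from glutamate, ranged from 237 to 355 CPM, with a median of 311, after Ash1l shRNA. It was 650, 867 and 581 CPM in the female and 669 and 950 CPM in the male Setd5 shRNA libraries and 551 to 893 CPM in the nontargeting libraries (log2 difference -1.29, SE 0.15, adjusted p = 3.3e-04). The Setd5 shRNA libraries overlapped the control for Gad1, and the Ash1l shRNA libraries did not.

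Lhx6, a transcription factor of interneurons from the medial ganglionic eminence, ranged from 60.2 to 84.8 CPM after Ash1l shRNA and was 154, 102 and 122 CPM in the female and 162 and 149 CPM in the male Setd5 shRNA libraries (-1.01, SE 0.12). The control, at 75.5 to 119 CPM, overlapped both groups, with its mean of 98.3 CPM between theirs, and the library left out had 86.7 CPM. Gad2, the other GABA synthesis enzyme, had -0.57 (SE 0.15) and Pvalb -1.91 (SE 0.50), the latter at 0.287 CPM after Ash1l shRNA, 1.02 after Setd5 shRNA and 0.233 with the nontargeting shRNA, and these calls held under 11 and 10 of the 18 alternatives. The vesicular GABA transporter Slc32a1 was not called (-0.51, adjusted p = 0.18). Its means were 59.3 CPM after Ash1l shRNA, 85.1 after Setd5 shRNA and 140 with the nontargeting shRNA.

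Interneuron markers not called had values of both signs, among them Erbb4 (-0.59), Reln (-0.46), Dlx2 (0.67), Sp9 (0.92), Sst (0.32) and Npy (0.12). The summed level of the 18 markers ranged from 1846 to 2701 CPM after Ash1l shRNA, 2263 to 4167 CPM after Setd5 shRNA and 2820 to 3939 CPM with the nontargeting shRNA. Fewer interneurons and less RNA of these genes in each interneuron cannot be told apart in bulk libraries.

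Of 15 excitatory neuron markers, 2 were called, both higher after Ash1l shRNA, with a list median of 0.21. Values were positive for 10 of the 15 and ran from -0.41 to 1.05. Over the alternatives 1 to 5 were called higher and 0 to 1 lower. Slc17a6, a vesicular glutamate transporter, ranged from 84.0 to 116 CPM, with a median of 91.9, after Ash1l shRNA. It was 41.7, 49.1 and 42.3 CPM in the female and 42.1 and 51.7 CPM in the male Setd5 shRNA libraries, and the nontargeting libraries lay between 39.9 and 57.9 CPM (log2 difference 1.05, SE 0.11, adjusted p = 1.5e-04). Bcl11b, a factor of deep-layer projection neurons, was the other (0.49, SE 0.13), a call held under 12 of the 18 alternatives. Slc17a7, the main cortical glutamate transporter, had 0.23 (adjusted p = 0.26).

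Of 20 astrocyte and radial glia markers, Id3 was called higher after Ash1l shRNA (1.61, SE 0.42) and Vim (-0.77, SE 0.18), Mt2 (-0.97) and Nes (-0.87) lower, with calls held under 11, 16, 12 and 8 of the 18 alternatives. Their summed level overlapped, at 830 to 1486 CPM after Ash1l shRNA and 945 to 1582 CPM after Setd5 shRNA. No member was called among the 8 oligodendrocyte (2 unadjusted, 1 by DESeq2), 4 microglia (1 unadjusted, 0 by DESeq2) and 16 vascular and meningeal markers tested (1 unadjusted, 1 by DESeq2). The 16 listed microglia markers, of which 12 were too low to test, summed to 12.1 to 19.8 CPM after Ash1l shRNA, 19.9 to 25.5 CPM after Setd5 shRNA and 15.1 to 19.9 CPM with the nontargeting shRNA. The part of other cell types in the neuronal differences was not tested.

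**Figure D5:**
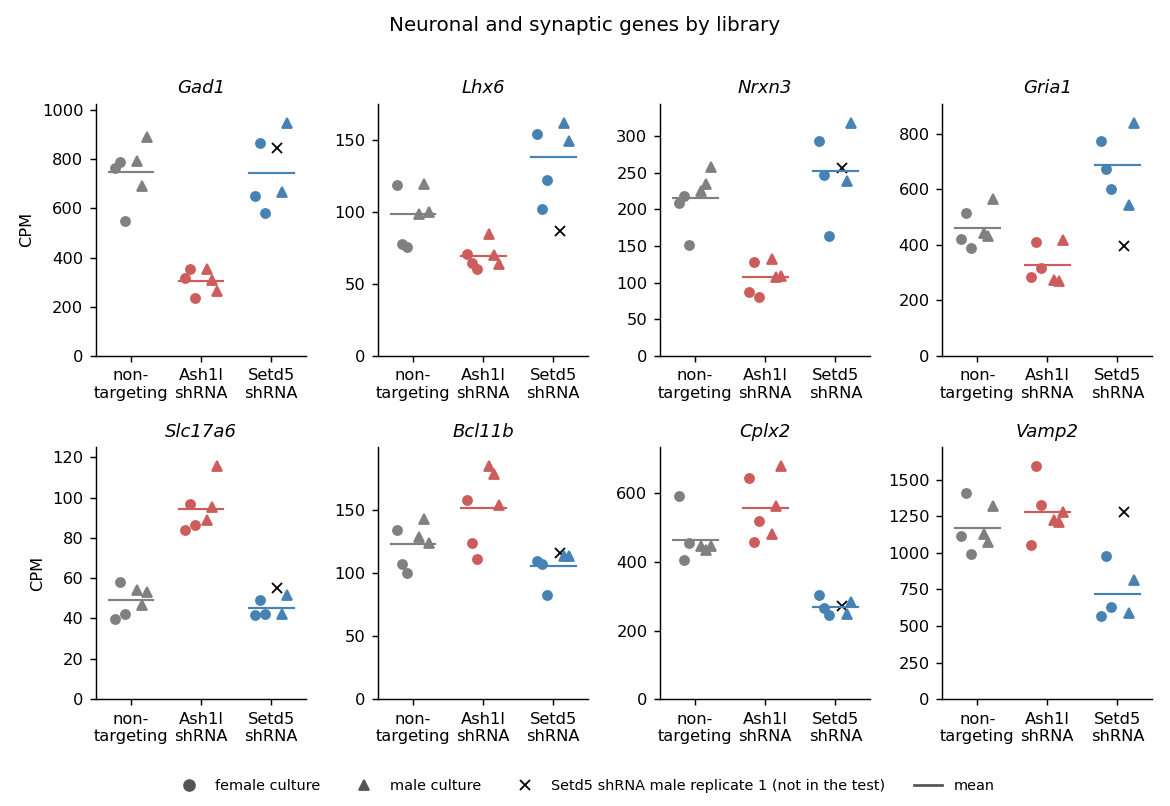
CPM (vertical axes, linear, from 0) of 8 neuronal and synaptic genes in each library, with symbols as in the plot of target levels. Gad1 and Nrxn3 are low and Slc17a6 is high in the Ash1l shRNA libraries alone, while Cplx2 is low in the Setd5 shRNA libraries (244 to 304 CPM).

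Neurexins, presynaptic organisers of synapses, and their partners had 3 of 22 members called, all lower after Ash1l shRNA, with a list median of 0.00. Nrxn3 ranged from 80.3 to 132 CPM after Ash1l shRNA and was 293, 247 and 164 CPM in the female and 239 and 319 CPM in the male Setd5 shRNA libraries (-1.25, SE 0.17, adjusted p = 6.8e-04). The control lay between 151 and 259 CPM. Nlgn3, a postsynaptic neuroligin, had -0.69 (SE 0.16), a call lost without Setd5 shRNA male replicate 3 (adjusted p = 0.090). Cbln2, a secreted bridge between neurexins and glutamate delta receptors, had -0.60 (SE 0.15), a call held under 13 of the 18 alternatives.

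Genes of synaptic vesicle release were called in both directions, 4 higher and 4 lower of 30, with a list median of 0.08. Cplx2, a complexin that clamps vesicle fusion, ranged from 460 to 680 CPM after Ash1l shRNA and was 304, 265 and 244 CPM in the female and 247 and 282 CPM in the male Setd5 shRNA libraries (1.06, SE 0.13, adjusted p = 3.7e-04). The nontargeting libraries had 405 to 594 CPM, and the library left out had 272. Vamp2, the vesicle SNARE, ranged from 1053 to 1593 CPM and from 569 to 979 CPM (0.85, SE 0.16), and Syn3, a synapsin, had 0.80 (SE 0.17).

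Syt7, the calcium sensor of slow release, was lower after Ash1l shRNA (-0.76, SE 0.13), as was Sv2a, a vesicle glycoprotein (-0.64, SE 0.11). Vamp1 (0.57), Syn2 (-0.73) and Syt2 (-1.03) were called under 16, 8 and 7 of the 18 alternatives. Syt1, the calcium sensor of fast release, and the SNARE gene Snap25 were not called, with values of 0.14 and 0.13.

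Glutamate receptor genes had 2 members called higher and 4 lower after Ash1l shRNA of 27. Gria1, an AMPA receptor subunit, ranged from 269 to 419 CPM after Ash1l shRNA and was 774, 675 and 601 CPM in the female and 545 and 842 CPM in the male Setd5 shRNA libraries (-1.06, SE 0.16, adjusted p = 0.0014). The control, at 388 to 565 CPM, overlapped both groups. Gria2, a further AMPA subunit (-0.53), Grik1, a kainate subunit (-0.50), and the AMPA auxiliary subunit Cacng2 (-0.69) were called in the same direction, under 15, 15 and 13 of the 18 alternatives. Cnih2, which helps AMPA receptors leave the endoplasmic reticulum, was higher (0.49, SE 0.10), and so was Grin3a (0.33), a call held under 7 of the 18.

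Of 14 GABA receptor genes, 1 was called in each direction. Gabrd, a subunit of extrasynaptic receptors, was lower after Ash1l shRNA (-0.91, SE 0.14). No postsynaptic scaffold gene of 22 was called (7 unadjusted, 4 by DESeq2), and 18 of them had positive values (median 0.17). This count depended on the setting: 5 were called higher without Setd5 shRNA female replicate 2, 5 with all groups in the fit, 2 with the library left out added, and 10 higher and 1 lower with replicate numbers as a block.

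Among ion channels, Scn3b, a sodium channel beta subunit, ranged from 307 to 442 CPM after Ash1l shRNA and was 250, 194 and 216 CPM in the female and 175 and 165 CPM in the male Setd5 shRNA libraries (1.02, SE 0.14). The nontargeting libraries had 207 to 240 CPM. Scn2b was also higher (0.48, SE 0.08), and Cacna2d2 lower (-0.45, held under 13 of the 18 alternatives), 3 calls among 34 sodium, calcium and HCN channel genes. Of 63 potassium channel genes, 1 was higher and 4 were lower, and over the alternatives 0 to 10 were higher and 1 to 5 lower. Kcnc2, a fast Kv3 channel of interneurons that fire at high rates, had the smallest p, with means of 34.0 CPM after Ash1l shRNA, 64.0 after Setd5 shRNA and 73.2 with the nontargeting shRNA and no overlap between the knockdowns (-0.90, SE 0.14).

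Axon guidance genes had 5 of 67 members called higher after Ash1l shRNA, all semaphorins or the semaphorin receptor Plxnc1. Lower were 2, Epha5 and Efna2, a receptor and a ligand of the ephrin system. The share called was 10.4%, near that of all genes, with a list median of 0.007 and 34 positive values. Over the alternatives 1 to 10 were higher and 2 to 8 lower. Semaphorins and plexins not called are not given here by name. Epha5 ranged from 150 to 259 CPM after Ash1l shRNA, 264 to 401 CPM after Setd5 shRNA and 324 to 408 CPM with the nontargeting shRNA (-0.79, SE 0.15), and Efna2 had -0.82 (SE 0.14). Sema3c, a secreted semaphorin, had 25.1 to 40.5 CPM after Ash1l shRNA and 14.5 to 20.9 CPM after Setd5 shRNA (0.82, SE 0.13). The library left out had 45.7 CPM, and with it the adjusted p of Sema3c was 0.14. Plxnc1 (0.95), Sema6d (0.71), Sema6b (0.59) and Sema4g (0.60) were called under 16, 15, 11 and 8 of the 18 alternatives.

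Jun alone of 20 immediate early transcription factors was called. It ranged from 54.7 to 99.5 CPM after Ash1l shRNA and was 24.1, 30.2 and 27.0 CPM in the female and 41.2 and 34.3 CPM in the male Setd5 shRNA libraries (1.06, SE 0.14, adjusted p = 6.4e-04), with 52.3 to 77.0 CPM in the control. None of 20 late activity-induced genes was called (4 unadjusted, 2 by DESeq2). Sort1, a sorting receptor for neurotrophins, was higher after Ash1l shRNA (0.75, SE 0.12), with 1 further call, Shc2, of 22 neurotrophin genes (0.38, held under 11 of the 18 alternatives). Clustered protocadherins had 2 higher and 2 lower of 54.

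Cholesterol synthesis and uptake genes had 4 of 24 members called, all higher after Ash1l shRNA, with a list median of 0.09. Srebf2, the transcription factor that switches these genes on, had means of 335 CPM after Ash1l shRNA, 225 after Setd5 shRNA and 325 with the nontargeting shRNA (0.56, SE 0.11). Hsd17b7 (0.89, SE 0.16) lost its call with Setd5 shRNA male replicate 1 added, which had 96.8 CPM (adjusted p = 0.14). Tm7sf2 (0.57) was called under 11 of the 18 alternatives. Hmgcs1, an early enzyme of the pathway, was not called, at -0.42.

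Genes of the unfolded protein and integrated stress responses had 3 of 28 members called, all lower after Ash1l shRNA, with a list median of -0.29 and 4 positive values. Canx, a chaperone of the endoplasmic reticulum, had -0.63 (SE 0.11). Mthfd2, a mitochondrial folate enzyme under control of ATF4, had 13.6 to 35.5 CPM after Ash1l shRNA and 37.4 to 61.0 CPM after Setd5 shRNA (-1.25, SE 0.22). Calr had -0.39 and was called under 7 of the 18 alternatives. The summed level of the list ranged from 2687 to 3982 CPM after Ash1l shRNA, 3895 to 4743 CPM after Setd5 shRNA and 3756 to 4830 CPM with the nontargeting shRNA.

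Cytosolic ribosomal protein genes had 4 of 88 members called lower after Ash1l shRNA, 5 with a positive value, and a median of -0.30. Among the called members were Rpl6 (-0.49, SE 0.11), Rpl14 (-0.54, lost without Setd5 shRNA male replicate 2) and Rpl9 (-0.48, called under 12 of the 18 alternatives). The summed level overlapped widely, at 13546 to 22474 CPM after Ash1l shRNA and 14456 to 25263 CPM after Setd5 shRNA, and the count of lower members was 20 without Setd5 shRNA female replicate 2. Of 80 nuclear genes of oxidative phosphorylation, Cox6b2 (1.01) was higher and Atp5d (-0.69) lower, under 16 and 9 of the 18 alternatives. No member was called among 24 p53 targets (4 unadjusted, 3 by DESeq2) and 16 interferon-stimulated genes (3 unadjusted, 1 by DESeq2), and of 31 cell cycle genes only Cenpa was called (-1.19, held under 15 of the 18).

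Within one sex the contrast had fewer libraries, with the spread estimated over all 11. Among females, 3 against 3 libraries, 243 genes were called (1.58%). The replicate numbers of the female cultures went with shared deviations, which this count does not use. With the numbers of both sexes as a block the count was 1258. In fits with no block it was 16, 38, 32, 49 and 444 without Ash1l shRNA female replicate 3, Ash1l shRNA female replicate 1, Setd5 shRNA female replicate 3, Setd5 shRNA female replicate 1 and Setd5 shRNA female replicate 2, in that order. It was 90 and 124 without Ash1l shRNA male replicates 1 and 2 and 147 and 154 without Setd5 shRNA male replicates 2 and 3. Among males, 3 against 2 libraries, 163 genes were called (1.06%). None was called without Ash1l shRNA male replicate 1 or 2 or without either Setd5 shRNA male library. The male count was 11 without Ash1l shRNA male replicate 3, 64 without Ash1l shRNA female replicate 3 and 253 without Setd5 shRNA female replicate 2. Within-sex counts thus moved widely with single libraries.

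The difference between the sexes itself was tested as an interaction of target and sex. No gene passed (0% of 15372), with 136 genes at an unadjusted p under 0.05 in edgeR, and none passed in DESeq2, with 189. The genes with the smallest p were Mtag2, C1rl and Cfap54, all at low levels. Mtag2 had 0.414 to 1.10 CPM after Ash1l shRNA and 0 to 0.0303 CPM after Setd5 shRNA in females, and 0.312 to 1.13 and 0.630 to 0.771 CPM in males. Among named genes, Dffa (-1.38 in females, -1.45 in males), Kmt5a (-1.83 and -1.87), Cntnap4 (1.57 and 1.54) and Gad1 (-1.21 and -1.38) had values near each other in the 2 sexes. Others had values farther apart, as Sync (-4.58 and -1.52), Mt2 (-0.61 and -1.40), Cenpa (-0.85 and -1.60) and Scn3b (0.81 and 1.29), differences that did not pass either. Dffa, Kmt5a, Cntnap4 and Sync were chosen for no overlap within either sex, so their shared sign was largely fixed by that choice.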

How the data were processed

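Polyadenylated RNA of the cultures was made into stranded libraries, per the labels' protocols. The authors deposited 1 table of read counts per gene (48716 rows, not normalized), and the submitters' processing notes name STAR, featureCounts and mm10, with versions not given in the sources used here. Rows without a symbol (18483, 0.690% to 1.28% of the counts of the 11 libraries) were left out, 149 repeated symbols were summed, and 6 columns of no sample used here were not used. The columns headed Luc, taken as luciferase, were matched to the group labelled nontargeting, as the sole infected control. Counts from 1 to 20 were odd in 26.0% of cases, against 48.4% at 1000 or more, so halved counts were tried.

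Counts of the 11 libraries were filtered with filterByExpr, scaled by TMM (factors 0.953 to 1.03) and fitted in edgeR 4.0.16 (R 4.3.3, glmQLFTest), with sex as covariate and Benjamini-Hochberg adjustment over all genes at 0.05. Differences are log2, Ash1l shRNA minus Setd5 shRNA. Differences from nontargeting come from a fit that adds the 6 control libraries. CPM are relative to TMM-scaled totals. The fit was also run on simulated counts that held no sex effect and no deviations shared by replicate number. The outcome of that run is not reported here. Members and gene lists were chosen with earlier results of these data known. Named genes are, in each direction, the 10 called genes with the smallest p and the 5 with the largest difference at a mean of at least 1 CPM, without overlap within either sex and leaving out targets, Xist and Y-linked genes, then called list members and the 3 genes with the smallest p for sex dependence. No 2 replicates were alike within sampling noise (chi-square per gene 21.1 to 209). Alternatives were DESeq2 1.42.0, RLE factors, no filter, all groups in the fit and Setd5 shRNA male replicate 1 added. Further ones were a replicate block, halved counts and each of the 11 libraries removed in turn.

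Deviations of same-numbered Ash1l and Setd5 shRNA libraries had r of 0.389, 0.561 and 0.233 in females and 0.0764 and 0.169 in males. The main fit used no pairing by replicate number in either sex. The block alternative took the numbers of both sexes as pairs. Some genes of the lists are counted but not reported here by name.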

Additional observations from a re-analysis of the deposited data

Results flagged for a closer look

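Of 166 pairs of a named gene and a group, 12 had 1 library far from the rest of its group, a gap that chance gives in about 1 of 20 groups. In the Setd5 shRNA group, female replicate 2 stood apart for Cbfb (14.9 CPM, the others 8.15 to 9.65), Gnai2 (103.9 CPM, the others 141 to 155) and Id3 (1.02 CPM, the others 2.15 to 2.79). Female replicate 3 did so for Bcl11b (82.3 CPM, the others 107 to 114) and Krt73 (0 CPM, the others 0.425 to 0.729), and male replicate 2 for Bpnt1 (62.5 CPM, the others 70.5 to 72.9).

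In the Ash1l shRNA group, male replicate 3 stood apart for Cntnap4 (79.9 CPM, the others 97.9 to 109), Efna2 (10.3 CPM, the others 7.51 to 8.01) and Pcdhgc4 (123.1 CPM, the others 72.5 to 86.6). Male replicate 2 was the only one with a count of Hoxd8 (0.056 CPM). Female replicate 2 had 307 CPM of Scn3b, where the others had 388 to 442, and female replicate 1 had 247 CPM of Sort1, where the others had 316 to 347. With these libraries included, the knockdown groups did not overlap for Cbfb, Gnai2, Cntnap4, Krt73, Bpnt1, Efna2, Scn3b or Sort1. They did overlap for Bcl11b and Hoxd8. Cbfb, Gnai2, Cntnap4, Krt73 and Bpnt1 were chosen for no overlap within either sex, so for them this was largely fixed by the choice. Among all called genes the groups did not overlap for 584 of 764 higher and 420 of 604 lower.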

How the results depend on the processing

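No called named gene changed sign in an alternative that tested it. The balance of calls turned from mostly higher to mostly lower with Setd5 shRNA male replicate 1 added (581 and 634). The medians of 22 of the 32 lists took both signs over the 18 alternatives, for immediate early factors from -0.26 to 0.22. Of the 1368 genes, 575 were called in every setting and 629 without each library in turn. A fit of all groups gave 2349 calls, 1299 higher and 1050 lower after Ash1l shRNA, with 1213 in females and 824 in males. DESeq2 gave 2030, 982 of them lower, with 752 in females and 579 in males. With replicate numbers of both sexes as a block, although deviations were less shared in males, the count was 2813. Of these, 1474 were higher and 1339 lower. The block gave 1258 calls in females, 872 in males and 2 that depended on sex. With Setd5 shRNA male replicate 1 added the female count was 122. Leaving out 1 library at a time gave 724 to 1583 calls, 415 to 891 higher and 309 to 692 lower, 16 to 444 in females and 0 to 253 in males. Other settings kept the counts within 1.5 times. The cause of these shifts was not tested.

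Of the named called genes, 12 lost their call with Setd5 shRNA male replicate 1 added and 4 without a filter. All groups in the fit cost 2 calls, the block cost 2 and RLE factors cost none. No named gene lost its call with DESeq2 (76 of 78 tested) or halved counts (77 of 78). Hoxd8 was tested in neither, and Sync was not tested in DESeq2. Leaving out 1 library cost 3 to 25 of them, the most (25) without Setd5 shRNA male replicate 3, then 19 without Ash1l shRNA female replicate 3. Lower members among ribosomal protein genes numbered 2 to 40. Potassium channel genes had 0 to 10 higher and 1 to 5 lower. Those of the stress response list were 9 in DESeq2, 10 with the block and 7 with Setd5 shRNA male replicate 1 added. With 5 libraries in 1 group, and 13759741 counts in the shallowest, genes under 1 CPM rest on few counts.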
